A study of Mus musculus with 6 samples.

Results

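Endothelial cells line blood and lymphatic vessels, and the endocardium is the endothelium that lines the chambers of the heart. The genes described here are 34 genes of these cells, taken by symbol from a written list that was drawn up with earlier results of these data known, and all 34 were present among the 23284 gene symbols of every table. They were followed in whole hearts of C57BL/6 mouse embryos at E13.5, profiled by poly(A) RNA sequencing. Mutant hearts, called Tfam KO, were Tfam fl/fl; Nkx2.5 IRES-Cre/+, and Control hearts were Tfam fl/+; Nkx2.5 IRES-Cre/+, so that both groups carried Cre and at least 1 floxed Tfam allele. Each group had 3 libraries and each library came from 5 pooled hearts. Tfam encodes mitochondrial transcription factor A, on which the packaging, transcription and copying of mitochondrial DNA depend. The Cre is made where Nkx2.5 is active, which covers cardiomyocytes and part of the endocardium, and other vessels of the heart need not carry the deletion. The values come from whole hearts, so fewer endothelial cells and less RNA per endothelial cell cannot be told apart.

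Endothelial identity is held by transcription factors of the ETS and SOX families, which act on genes for junction proteins, receptors and secreted products of these cells. Several of the receptors listen to the heart muscle and its surroundings: TIE2 binds angiopoietins, the adrenomedullin receptor is a complex of CALCRL and RAMP2, APLNR binds apelin, and endoglin is a co-receptor for ligands of the BMP and TGF-beta families. In the embryonic heart the endocardium and the muscle wall depend on each other through such signals while the trabeculae, valves and coronary vessels form.

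The promoters of some of these genes can be described apart from their expression. Many endothelial promoters and enhancers hold the ETS-type core CAGGAA, read as TTCCTG on the other strand. RefSeq gave a window of 250 bases before a start site (build GRCm38.p6) for 17 of the 34 genes, in 22 windows. Some genes have more than 1 start site and so more than 1 window. Of the 22 windows, 14 held CAGGAA or TTCCTG (63.6%), against 25.7% of the 32851 windows of all genes. A match of letters is a description and not a binding site. The windows of Emcn (chr3:137340828-137341077), Cd34 (chr1:194938571-194938820) and Egfl7 (chr2:26580833-26581082) are shown because each holds 2 matches and because the windows differ in base composition, with 40.8% GC in Emcn, 46.4% in Cd34 and 58.0% in Egfl7. This is the GC content of the window and not that of the transcript. The median window of all genes had 52.4% GC. Egfl7 has further windows, which are not shown and held 1 and 0 matches. Each gene lies on the plus strand, the sequences run 5′ to 3′ towards the start site, and capitals mark the matches.
Emcn: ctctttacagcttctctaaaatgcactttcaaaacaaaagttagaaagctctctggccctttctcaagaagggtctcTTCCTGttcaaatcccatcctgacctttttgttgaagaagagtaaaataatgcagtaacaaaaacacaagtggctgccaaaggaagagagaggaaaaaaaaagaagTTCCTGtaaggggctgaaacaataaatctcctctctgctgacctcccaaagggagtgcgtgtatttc
Cd34: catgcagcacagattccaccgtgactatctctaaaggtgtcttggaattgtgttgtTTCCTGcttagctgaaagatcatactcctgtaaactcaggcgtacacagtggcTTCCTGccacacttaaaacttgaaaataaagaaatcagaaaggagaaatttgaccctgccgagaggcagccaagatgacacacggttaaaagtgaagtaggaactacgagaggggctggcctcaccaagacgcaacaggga
Egfl7: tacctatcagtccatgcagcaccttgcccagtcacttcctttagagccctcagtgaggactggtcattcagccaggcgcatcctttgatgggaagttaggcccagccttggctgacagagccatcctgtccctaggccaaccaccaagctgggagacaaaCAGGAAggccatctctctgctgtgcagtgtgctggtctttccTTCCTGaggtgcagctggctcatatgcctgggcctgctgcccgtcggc
In Emcn and Cd34 both matches read TTCCTG, and in Egfl7 1 reads CAGGAA and 1 reads TTCCTG.

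The libraries held between 12370092 and 18078620 reads, and 15586 to 16063 genes were above 0 in each. Reads on Rn45s, the ribosomal RNA precursor, took between 14.95% and 32.5% of a library and were lowest in Tfam KO replicate 3. The deposited unit was FPKM (reads per length of transcript and per library total). In this unit the median of all 10807 genes tested was 0.28 higher in Tfam KO on the log2 scale. After division by size factors (0.828 to 1.33), which equalise the typical gene by construction, that shift was 0.01. Whether the shift lies in the scale of the libraries or in most genes cannot be told from these data. Each difference is therefore given on both scales, as deposited and with size factors, as a log2 fold change of FPKM + 1 for Tfam KO over Control from limma, with p-values adjusted over all genes tested. A gene is said to have risen or fallen where its adjusted p was under 0.05 on both scales. Tfam itself was at 3.97, 4.77 and 6.22 FPKM with both alleles floxed and 4.64, 5.55 and 6.62 FPKM in Control hearts (log2 fold change -0.15, adjusted p = 0.651, and -0.42, adjusted p = 0.152, with size factors). This checks the labels only weakly: 1 allele is intact throughout the controls, cells without Cre history are in every library, and reads of exons that are not floxed are counted too. The tissue label was checked on heart muscle markers, and all 13 cardiomyocyte genes listed for this purpose were measured, troponin T (Tnnt2) at a mean of 2421 FPKM in Tfam KO and 2571 FPKM in Control.

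None of the 34 endothelial and endocardial genes rose or fell by the rule of both scales in the main fits, against 3.03% of all genes tested. Of the 34, 33 passed the filter of a mean of 1 FPKM. As deposited, 1 of the 33 had an adjusted p under 0.05 in the higher direction, Emcn, and 0 in the lower direction, against 6.21% and 1.16% of all genes. With size factors 0 were higher and 1 was lower, Plvap, against 2.07% and 2.5% of all genes. By unadjusted p (threshold 0.05) there were 2 higher and 1 lower as deposited (23.3% and 2.53% of all genes) and 1 higher and 5 lower with size factors (8.87% and 10.4% of all genes). With limma-voom on whole reads recovered from the FPKM values, 0 were higher and 3 were lower, Plvap, Ramp2 and Rasip1 (2.66% and 4.2% of all genes). The counts of 0 and 1 among 33 genes by adjusted p in the main fits are near the backgrounds. The 2 higher by unadjusted p as deposited are below their background, and the 3 lower in limma-voom are above theirs. Counts this small say nothing of the members as a group.

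The median log2 fold change of the 33 genes was 0.19 as deposited, beside 0.28 for all genes, and -0.10 with size factors, beside 0.01. The range was -0.53 to 0.68 as deposited and -0.84 to 0.36 with size factors. As deposited 24 of the 33 differences were positive and 9 negative, and with size factors 11 were positive and 22 negative. Of all 10807 genes tested, 9126 were positive and 1681 negative as deposited, and 5618 and 5189 with size factors. The 3 Tfam KO libraries lay above all 3 controls for 10 genes as deposited and below for 0, where 25.6% and 2.34% of all genes did so. With size factors they lay above for 1 gene, Emcn, and below for 5, Ramp2, Plvap, Mmrn2, Nos3 and Rasip1, where 12.5% and 11.6% of all genes did so. Summed over the 34 genes, the deposited values ran from 338 to 433 FPKM in Tfam KO and from 333 to 385 FPKM in Control, so the groups overlapped. The same sums after size factors were 311 to 370 FPKM in Tfam KO and 380 to 431 FPKM in Control, with no overlap. A sum is weighted towards abundant genes. Ramp2 and Plvap, which lay below all controls with size factors, are among the most abundant of the 34. The sums therefore do not describe the list as a whole.

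**Figure D1:**
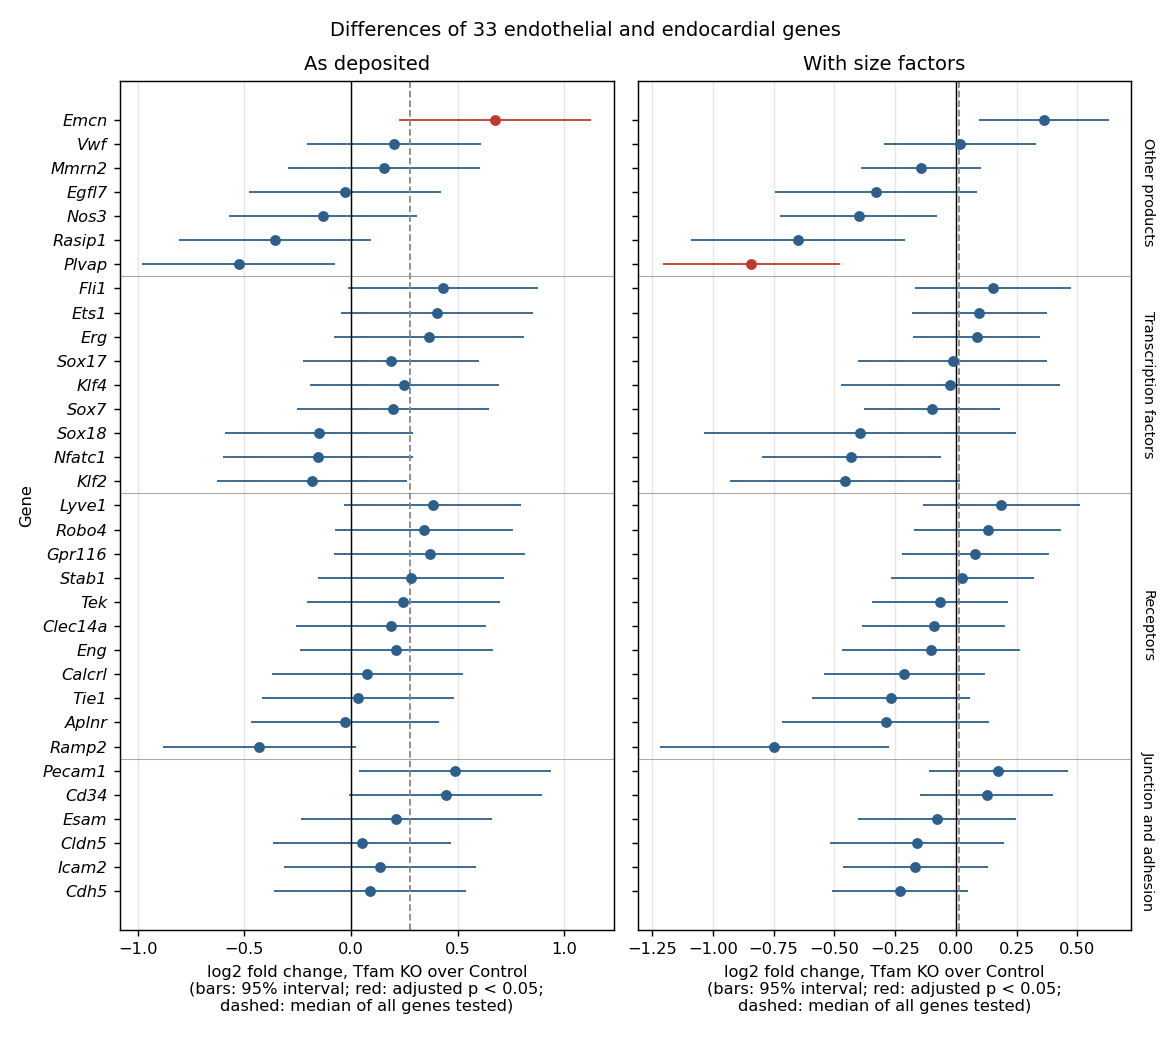
Log2 fold change (Tfam KO over Control, x axis) of the 33 tested endothelial and endocardial genes with 95% intervals, grouped by role, as deposited (left) and with size factors (right); the dashed line is the median of all genes tested and red marks an adjusted p under 0.05. Emcn is the only red point on the left and Plvap the only one on the right, and the bulk of the points moves from the right of 0 to its left between the panels.

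FPKM is scaled by transcript length, so levels can be set beside each other. The highest mean over the 6 libraries was that of Ramp2 (36.0 FPKM), followed by Cdh5 (32.1 FPKM), Cd34 (30.9 FPKM), Plvap (25.0 FPKM), Emcn (24.4 FPKM), Eng (24.3 FPKM), Pecam1 (22.7 FPKM) and Tek (17.1 FPKM). The libraries of neighbours in this order overlapped in level, and Ramp2 was the highest of the 34 in Control while Cd34 was the highest in Tfam KO, at 35.8 FPKM. At the low end were Vwf (1.31 FPKM), Sox17 (1.61 FPKM), Lyve1 (1.66 FPKM), Robo4 (1.802 FPKM) and Cldn5 (1.85 FPKM). Over the 3 libraries of a group, the tested members held from 111 reads (Cldn5 in Control) to 5670 reads (Cdh5 in Tfam KO). Ramp3, which like Ramp2 is a partner of the calcitonin receptor-like receptor, was the 1 gene under the filter, with 2 reads in the Tfam KO libraries and 6 in the controls, and is not compared further.

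The junction and adhesion genes showed no difference past the threshold on either scale in the main fits. Cdh5, which encodes VE-cadherin, the main adhesion protein of endothelial junctions, was at 37.7, 28.1 and 33.6 FPKM in Tfam KO and 30.04, 27.9 and 35.1 FPKM in Control. The groups overlapped throughout, with a difference of 0.09 on the log2 scale (95% interval -0.36 to 0.54, adjusted p = 0.796 in limma) as deposited and -0.23 (-0.51 to 0.05, adjusted p = 0.361) with size factors. Cd34, a surface sialomucin of endothelial and blood progenitor cells, was at 37.7, 31.6 and 38.2 FPKM in Tfam KO and 26.7, 23.4 and 27.9 FPKM in Control. Every Tfam KO library was above every control as deposited, with a log2 fold change of 0.44 (SE 0.23, adjusted p = 0.199). With size factors the groups overlapped and the value was 0.13 (SE 0.12, adjusted p = 0.641). Pecam1, the adhesion molecule known as CD31, had the largest difference of this group as deposited, 0.49 (adjusted p = 0.162), and was at 0.17 (adjusted p = 0.515) with size factors, where Cdh5 was farther from 0. As deposited, Pecam1 passed the threshold with the replicate number as a block (adjusted p = 0.0447). It also did so without Tfam KO replicate 2 (0.57, adjusted p = 0.0478). Esam, a further junction molecule, Icam2, an adhesion ligand for leukocyte integrins, and Cldn5, the tight junction claudin of endothelium, lay between 0.05 and 0.21 as deposited and between -0.17 and -0.08 with size factors. All 6 differences were positive as deposited, as were 9126 of all 10807 genes tested, and 2 were positive and 4 negative with size factors.

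Among the receptors, Ramp2 stood lowest and was the only member of this group whose libraries did not overlap with size factors. RAMP2 carries the receptor CALCRL to the cell surface and makes it a receptor for adrenomedullin. Its FPKM was 41.6, 25.7 and 25.5 in Tfam KO and 46.3, 38.4 and 38.4 in Control. Tfam KO replicate 1 lay among the controls and the other two Tfam KO libraries lay below them. The log2 fold change was -0.43 (SE 0.23, adjusted p = 0.213) as deposited. With size factors the levels were 35.5, 27.8 and 19.2 FPKM against 55.9, 44.2 and 38.0 FPKM and the log2 fold change was -0.75 (SE 0.21, adjusted p = 0.0778), short of the threshold in the main limma fit and past it in limma-voom (-0.79, adjusted p = 0.0271). With the replicate number as a block, the limma adjusted p was 0.0766 as deposited and 0.00775 with size factors. With size factors it was 0.0322 without Tfam KO replicate 1 and between 0.101 and 0.214 with any other library left out. Calcrl, its partner, overlapped between the groups at a mean of 7.94 FPKM in Tfam KO and 7.44 FPKM in Control (0.08, adjusted p = 0.825, and -0.21, adjusted p = 0.491, with size factors).

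Eng, which encodes endoglin, was at 32.5, 23.2 and 23.2 FPKM in Tfam KO and 22.3, 20.03 and 24.7 FPKM in Control. Tfam KO replicate 1 alone lay above all controls, and the log2 fold change was 0.21 (SE 0.23, adjusted p = 0.523) as deposited and -0.10 (SE 0.16, adjusted p = 0.797) with size factors. Tek, which encodes the angiopoietin receptor TIE2, differed by 0.25 (adjusted p = 0.463) and -0.07 (adjusted p = 0.831 with size factors), and Tie1, the related receptor that pairs with TIE2, by 0.03 (adjusted p = 0.930) and -0.27 (adjusted p = 0.358). The apelin receptor Aplnr differed by -0.03 (adjusted p = 0.937) and -0.29 (adjusted p = 0.459). Robo4, the endothelial member of the roundabout receptors, Gpr116, an adhesion G protein-coupled receptor, Clec14a, a C-type lectin of endothelium, Stab1, a scavenger receptor, and Lyve1, the hyaluronan receptor of lymphatic vessels and some macrophages, lay between 0.19 and 0.38 as deposited and between -0.09 and 0.19 with size factors. Over the 11 receptors tested, the median was 0.21 as deposited and -0.09 with size factors. In the main fits 0 were past the threshold on either scale, and 1, Ramp2, was lower in limma-voom.

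**Figure D2:**
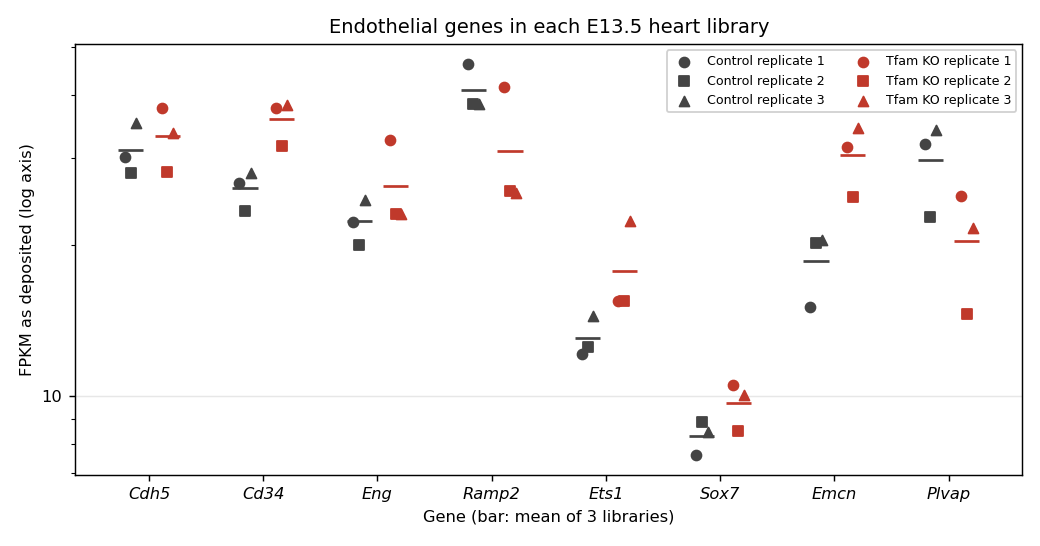
FPKM as deposited (log axis) in each of the 6 libraries for Emcn, Plvap and the 2 genes of highest mean level in each role group; symbols give the replicate, grey is Control, red is Tfam KO and bars are means of 3 libraries. The Emcn points of Tfam KO (25.0 to 34.3 FPKM) lie above those of Control (15.1 to 20.5 FPKM), Cd34 and Ets1 are also separated on this scale, and the other groups overlap.

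The transcription factors also gave no call on either scale in the main fits, and their direction depended on the gene. Ets1, an ETS factor of endothelium and other mesodermal cells, was at 15.5, 15.5 and 22.4 FPKM in Tfam KO and 12.1, 12.5 and 14.5 FPKM in Control. The groups did not overlap as deposited (log2 fold change 0.40, SE 0.23, adjusted p = 0.237) and overlapped with size factors (0.10, SE 0.12, adjusted p = 0.736). Its relatives Erg and Fli1, which act on many endothelial promoters, differed by 0.37 (adjusted p = 0.272) and 0.43 (adjusted p = 0.205) as deposited and by 0.09 (adjusted p = 0.754) and 0.15 (adjusted p = 0.633) with size factors. The 3 ETS genes were the only transcription factors here with a positive difference on both scales. Sox7, a SOX F factor of vessel formation, was at 10.5, 8.49 and 10.1 FPKM in Tfam KO and 7.60, 8.86 and 8.47 FPKM in Control, with overlap on both scales (0.20, SE 0.23, adjusted p = 0.552, and -0.10, SE 0.13, adjusted p = 0.736, with size factors).

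Sox17, a SOX F factor linked to arteries, differed by 0.19 (adjusted p = 0.539) and -0.01 (adjusted p = 0.976), and Sox18, linked to lymphatic vessels, by -0.15 (adjusted p = 0.644) and -0.40 (adjusted p = 0.513). Sox18 varied widely among the Tfam KO libraries, from 2.14 to 5.76 FPKM. Nfatc1, an endocardial factor needed for valve formation, differed by -0.15 (adjusted p = 0.638) as deposited and -0.43 (adjusted p = 0.186) with size factors. Klf2, a factor induced by blood flow, differed by -0.18 (adjusted p = 0.581) and -0.46 (adjusted p = 0.276), and its relative Klf4 by 0.25 (adjusted p = 0.446) and -0.02 (adjusted p = 0.965). The Klf2 value rested on individual libraries: without Tfam KO replicate 2 it was -0.74 with size factors, with an adjusted p = 0.0239.

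The remaining products of endothelium held the largest differences of the 33 genes in both directions. Emcn encodes endomucin, a sialomucin of endocardium, veins and capillaries. Its FPKM was 31.5, 25.0 and 34.3 in Tfam KO and 15.1, 20.2 and 20.5 in Control (30.3 ± 4.80 against 18.6 ± 3.05, SD, n = 3 each). Every Tfam KO library lay above every control on both scales. On the log2 scale this was a difference of 0.68 (SE 0.23, adjusted p = 0.0475 in limma) as deposited and 0.36 (SE 0.12, adjusted p = 0.131) with size factors. With 1 library left out, the deposited call held in 1 of 6 cases, without Tfam KO replicate 2 (adjusted p = 0.0190), and in the other 5 the adjusted p was between 0.0983 and 0.422. It was also lost with a pseudocount of 0.1 (adjusted p = 0.0511) and without the filter on low values (adjusted p = 0.173). The deposited call held without the variance trend (adjusted p = 0.0483) and with library totals without Rn45s (adjusted p = 0.0457). With the replicate number as a block, the adjusted p was 0.00457 as deposited and 0.0889 with size factors.

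Plvap encodes the protein of the diaphragms that cover caveolae and fenestrae of endothelium. Its FPKM was 25.1, 14.6 and 21.7 in Tfam KO and 31.9, 22.8 and 34.1 in Control (20.4 ± 5.35 against 29.6 ± 5.99, SD, n = 3 each). As deposited, Tfam KO replicate 1 exceeded Control replicate 2, and the log2 fold change was -0.53 (SE 0.23, adjusted p = 0.133). With size factors the levels were 21.4, 15.8 and 16.3 FPKM against 38.5, 26.3 and 33.8 FPKM, with no overlap, and the log2 fold change was -0.84 (SE 0.17, adjusted p = 0.0158). This call was lost without the filter on low values (adjusted p = 0.0628) and when replicate 2 or 3 of Tfam KO or replicate 1 or 3 of Control was left out (adjusted p between 0.0533 and 0.0735), and it held without Tfam KO replicate 1 (adjusted p = 0.0132) and without Control replicate 2 (adjusted p = 0.00782). In limma-voom it was -0.89 (adjusted p = 0.00281). With the replicate number as a block, Plvap was past the threshold on both scales (adjusted p = 0.0303 as deposited and 0.00397 with size factors). With library totals without Rn45s its log2 fold change was -0.66 (adjusted p = 0.0430). The annotated span of Plvap overlaps that of Gtpbp3 in RefSeq, and whether reads were counted by strand is not given in the sources used here. The same holds for Nos3 and Atg9b, Eng and Fpgs, and Stab1 and Nt5dc2.

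Set side by side within a library, where the library's scale drops out, Emcn exceeded Plvap in Tfam KO and not in Control. The ratio of Emcn to Plvap FPKM was 1.26, 1.71 and 1.58 in Tfam KO and 0.473, 0.885 and 0.601 in Control. This pair holds the 2 extreme members and was chosen after its values were seen, so the direction of the ratio was fixed by the choice, and it is given as a description with no test. Trends of a library with GC content do not drop out of it.

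Rasip1, a Ras-interacting protein needed for vessel lumens, had a log2 fold change of -0.36 (adjusted p = 0.288) as deposited and -0.65 (adjusted p = 0.1004) with size factors, and -0.75 (adjusted p = 0.0332) in limma-voom. Without Tfam KO replicate 3 it was -0.20 (adjusted p = 0.717) as deposited and -0.39 (adjusted p = 0.187) with size factors. With the replicate number as a block, its limma adjusted p was 0.139 as deposited and 0.0449 with size factors. Nos3, the endothelial nitric oxide synthase, differed by -0.13 (adjusted p = 0.685) and -0.40 (adjusted p = 0.164). Both were lower in all 3 Tfam KO libraries than in any control once size factors were applied. Egfl7, a secreted protein of the vessel matrix, differed by -0.03 (adjusted p = 0.937) and -0.33 (adjusted p = 0.383), Mmrn2, a matrix glycoprotein of vessels that binds CLEC14A, by 0.16 (adjusted p = 0.638) and -0.14 (adjusted p = 0.540), and Vwf, the von Willebrand factor, by 0.20 (adjusted p = 0.498) and 0.02 (adjusted p = 0.961).

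The differences of the members were ordered by the GC content of their transcripts. Across the 33 genes the rank correlation between log2 fold change and GC content of the longest transcript was -0.68 as deposited and -0.66 with size factors (Pearson -0.67 and -0.63). Over 10720 tested genes with a transcript it was -0.30 and -0.29. These are descriptions across genes that share the 6 libraries, and genes are not independent replicates. The 17 members at or under their median GC content had a median of -0.01 with size factors, and the 16 above it had -0.30. Emcn, at 40.7% GC, and Plvap, at 60.6% GC, lie towards the opposite ends of this range. In all genes the medians of the 4 lower quintiles of GC content lay between -0.0002 and 0.06 with size factors and that of the highest quintile, from 55.3% GC, was -0.16.

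The libraries differed in this respect within each group. The rank correlation of a library's deviation from the gene means with GC content was 0.28, -0.15 and -0.61 in Tfam KO replicates 1, 2 and 3 and 0.58, -0.20 and 0.10 in Control replicates 1, 2 and 3. Control replicate 1 and Tfam KO replicate 3 were the extremes. After a correction for GC content of each library, chosen after seeing the data, Emcn was at 0.30 (adjusted p = 0.146), Plvap at -0.52 (adjusted p = 0.0225), Ramp2 at -0.64 (adjusted p = 0.0468) and Rasip1 at -0.17 (adjusted p = 0.470). Plvap and Ramp2 were past the threshold with this correction. Without it the size-factor values were -0.84 for Plvap, -0.75 for Ramp2 and -0.65 for Rasip1, so each difference was smaller with it, that of Rasip1 most. The part of GC content in the differences of the members was not tested beyond this.

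**Figure D3:**
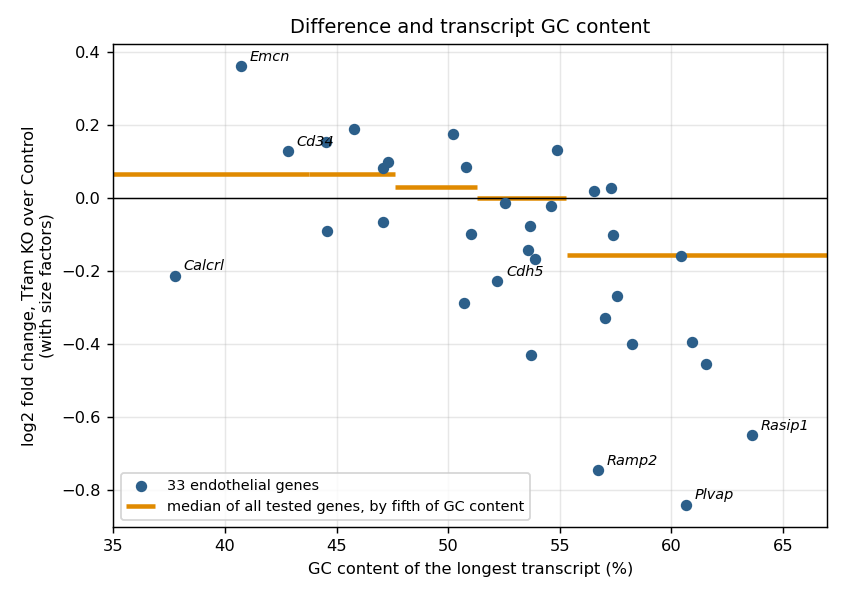
Log2 fold change with size factors (Tfam KO over Control, y axis) against the GC content of the longest transcript in % (x axis) for the 33 tested members; orange lines are medians of all tested genes in quintiles of GC content. The members slope from Emcn at the upper left to Plvap, Ramp2 and Rasip1 at the lower right, below the medians of all genes on the right.

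Among the ligands of these receptors and of the VEGF receptors, 3 genes passed the threshold on both scales. Angpt1, which encodes angiopoietin 1, the activating ligand of TIE2, was at 3.72, 4.23 and 6.45 FPKM in Tfam KO and 7.06, 9.06 and 10.2 FPKM in Control (4.80 ± 1.45 against 8.78 ± 1.60, SD, n = 3 each). All 3 Tfam KO libraries were below all controls. Angpt1 fell, with a log2 fold change of -0.77 (SE 0.23, limma adjusted p = 0.0170) as deposited and -1.05 (SE 0.15, adjusted p = 0.00316) with size factors. The size-factor call held with each library left out (adjusted p between 0.00516 and 0.0214), whereas the deposited call was lost when Tfam KO replicate 1 or either of Control replicates 2 and 3 was left out (adjusted p between 0.125 and 0.194) and without the filter on low values (adjusted p = 0.183). The ratio of Angpt1 to Tek FPKM was 0.184, 0.333 and 0.272 in Tfam KO and 0.479, 0.642 and 0.597 in Control, again with no test. Angpt1 is named because it fell and Tek gave no call, so the direction of this ratio followed from the choice. It adds nothing to the difference of Angpt1.

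Bmp10, a ligand from trabecular muscle that signals through ALK1 with endoglin, rose, from 11.3 ± 1.48 FPKM in Control to 26.4 ± 11.1 FPKM in Tfam KO (log2 fold change 1.07, adjusted p = 0.000183, and 0.76, adjusted p = 0.0454, with size factors). The size-factor call of Bmp10 was lost with each of 4 libraries left out, Tfam KO replicates 1 and 3 and Control replicates 1 and 3 (adjusted p between 0.101 and 0.171), without the variance trend (adjusted p = 0.0523) and with the replicate number as a block (adjusted p = 0.0629), and both of its calls were lost without the filter on low values (adjusted p = 0.159 and 0.126). Vegfa, the main endothelial growth factor, rose from 22.5 ± 3.71 to 49.6 ± 6.81 FPKM (1.11, adjusted p = 9.33e-05, and 0.79, adjusted p = 0.0231). Its size-factor call was lost when replicate 2 or 3 of Tfam KO or replicate 1 or 3 of Control was left out (adjusted p between 0.0607 and 0.103) and without the filter (adjusted p = 0.0792).

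Apln, the ligand of APLNR, was at 1.24, 2.12 and 1.24 FPKM in Tfam KO and 2.37, 2.65 and 2.85 FPKM in Control, with no overlap and no call (-0.53, adjusted p = 0.0999, and -0.73, adjusted p = 0.0639, with size factors). Adm2, a peptide that also acts on the CALCRL complexes, was under the filter, with 81 reads in the Tfam KO libraries and 2 in the controls. Adm, adrenomedullin itself, overlapped between the groups (-0.08, adjusted p = 0.812, and -0.27, adjusted p = 0.595). Tgfb1 was past the threshold with size factors alone (-0.77, adjusted p = 0.0123). Of the 13 ligand genes listed, 8 were tested, 2 rose and 1 fell on both scales, and their median was -0.02 as deposited and -0.27 with size factors. Angpt1 fell without a difference past the threshold in its receptor Tek, and Bmp10 rose without one in Eng. Whether ligand and receptor differ in their change was not tested.

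**Figure D4:**
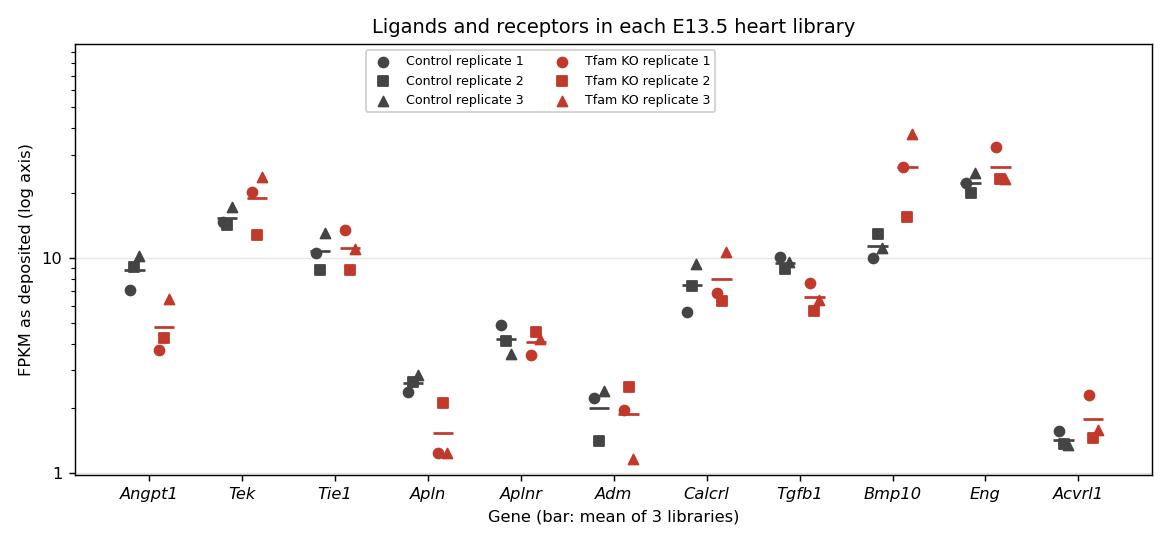
FPKM as deposited (log axis) of ligands and their receptors in each library; symbols give the replicate, grey is Control, red is Tfam KO and bars are means of 3 libraries. Angpt1, Apln and Tgfb1 lie lower and Bmp10 higher in every Tfam KO library than in any control, while the receptors Tek, Tie1, Aplnr, Calcrl, Eng and Acvrl1 overlap.

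Further endothelial genes, taken from a list of 40 that excludes the 34, were measured beside them. Of 38 present 35 were tested, with a median of 0.25 as deposited and -0.02 with size factors. On both scales 1 rose, Ppp1r16b, and 1 fell, Grrp1. Ppp1r16b, a regulatory subunit of protein phosphatase 1 found in endothelium, was at 3.58, 2.81 and 3.28 FPKM in Tfam KO and 1.18, 1.28 and 1.33 FPKM in Control (log2 fold change 0.90, adjusted p = 0.00139, and 0.68, adjusted p = 0.0143, with size factors). The size-factor call was lost without Tfam KO replicate 2 (adjusted p = 0.0621) or Control replicate 3 (adjusted p = 0.0720), and both calls were lost without the filter on low values (adjusted p = 0.0644 and 0.0513). Grrp1 was at 0.791 ± 0.0653 FPKM in Tfam KO and 2.01 ± 0.139 FPKM in Control (SD, n = 3 each; -0.75, adjusted p = 0.00961, and -0.92, adjusted p = 0.00524), from 42 and 109 reads in all. Its deposited call was lost without Tfam KO replicate 1 (adjusted p = 0.0595), Control replicate 1 (adjusted p = 0.117) or the filter (adjusted p = 0.0697). With size factors it was no longer past the threshold after the correction for GC content (-0.40, adjusted p = 0.174).

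The VEGF receptors Kdr and Flt1 were in that list and gave no call. Kdr was at 18.7 ± 1.47 FPKM in Tfam KO and 14.5 ± 1.18 FPKM in Control (0.35, adjusted p = 0.296, and 0.04, adjusted p = 0.894), and Flt1 at 8.37 ± 1.17 and 6.21 ± 0.606 FPKM (0.37, adjusted p = 0.265, and 0.09, adjusted p = 0.733).

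Of 14 tested genes linked to arteries, 1 fell on both scales, the Notch ligand Jag2 (0.854 ± 0.294 against 1.81 ± 0.164 FPKM, -0.61, adjusted p = 0.0449, and -0.78, adjusted p = 0.0327). The Jag2 calls were lost without the filter (adjusted p = 0.177 and 0.101), with a pseudocount of 0.1 (adjusted p = 0.0543 and 0.0571) and with any library left out other than Tfam KO replicate 2. The deposited call was also lost without the variance trend (adjusted p = 0.0784), and the size-factor value was -0.39 (adjusted p = 0.123) after the correction for GC content. With size factors 2 more artery-linked genes were lower, Gja5 (-0.95, adjusted p = 0.000855), a connexin, and Hey2 (-0.76, adjusted p = 0.0111), a Notch target, both of which heart muscle also makes. Of 6 tested genes of veins and lymphatic vessels, 0 passed the threshold on either scale. By unadjusted p (threshold 0.05) 1 was higher and 0 lower as deposited, and 1 higher and 1 lower with size factors. Of 16 genes of endocardium and cushions, 1 was higher as deposited, Edn1 (0.76, adjusted p = 0.0183), which was at 0.49 (adjusted p = 0.140) with size factors.

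Other cell types in the heart were measured with the same fit. Of 12 tested macrophage genes, which matter for Stab1 and Lyve1 since macrophages also make them, 1 was higher as deposited, Cx3cr1, and 0 with size factors, with medians of 0.32 and 0.13. Their 16 listed genes summed to 19.9 to 33.7 FPKM in Tfam KO and 17.0 to 21.8 FPKM in Control. After size factors the sums were 21.5 to 25.4 and 19.5 to 23.9 FPKM. Of the 16 genes, 12 reached the filter of a mean of 1 FPKM, and Ptprc, Cd163 and Cd14 were under 1 FPKM in both groups. The 10 platelet genes, of interest for Vwf, summed to 6.18 to 12.8 FPKM in Tfam KO and 7.97 to 10.4 FPKM in Control, with 4 tested and 0 past the threshold on either scale or at an unadjusted p under 0.05, and medians of -0.03 and -0.23. Fibroblast and mural genes had 4 of 14 higher as deposited, Lum, Postn, Pdgfra and Pdgfrb, and 0 of them with size factors, where Acta2 was lower. Their medians were 0.38 and 0.09, above those of the endothelial members (0.19 and -0.10). Of 13 cardiomyocyte genes 0 passed the threshold as deposited and 1, Ttn, was lower with size factors, with medians of -0.01 and -0.34. Of 7 tested erythroid genes, which come with the blood in the heart, 0 passed it on either scale, and by unadjusted p (threshold 0.05) 0 did as deposited and 1 was lower with size factors. All 7 were negative with size factors, as were 5189 of all 10807 genes tested. Their medians were -0.09 as deposited and -0.42 with size factors. Of 9 epicardial genes 0 passed it on either scale, with medians of 0.24 and 0.03. The part of cell composition in the differences of the endothelial genes was not tested.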

How the data were processed

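Poly(A) RNA of whole hearts was sequenced in 6 libraries, 3 per group, each a pool of 5 hearts per the labels' protocols, so that replicates are separate pools of embryos. CASAVA 1.8.2, TopHat2 2.0.7, HTSeq 0.5.3 and the mouse build mm9 are named in the submitters' processing notes without their roles. How FPKM was computed, on which annotation, and whether by strand, is not given in the sources used here. The deposited values of the authors are log2(FPKM + 1), 1 value per gene symbol and library. Turned back to FPKM, they fit whole multiples of 1 read, and whole reads were recovered for all 17876 genes above 0 in any library. The counts are the smallest that fit all libraries. They can be too low where a gene's reads share a factor or few libraries are above 0. Depth is estimated from these reads, and their number limits the precision of the low genes.

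Tests used limma 3.58.1 (R 4.3.3) on log2(FPKM + 1) of 10807 genes whose mean reached 1 FPKM, two-sided, with a variance trend on the mean and Benjamini-Hochberg adjustment over all of them at 0.05, once as deposited and once after median-of-ratios size factors. The fit without size factors and limma-voom were also run on simulated reads. Apart from the changed genes, the simulated libraries differed in depth alone. The simulation therefore does not cover the differences of scale and GC content between the libraries, the size factors or the GC correction. Fold changes on this scale understate the change of low genes. The 95% intervals are confidence intervals of the difference in means from limma, with a variance moderated across genes. They are not ranges of library values. The alternatives were a pseudocount of 0.1, no filter, no variance trend, the replicate number as a block, leaving out each library, totals without Rn45s and limma-voom on the recovered reads, with library scales from a trimmed mean of log ratios (TMM). A block in limma-voom and a GC correction were added after seeing the data. The members, the other gene lists and the rules were chosen with earlier results of these data known. Values per library are given for members past the threshold on either scale and for the 2 members of highest mean in each role group. Genes of other lists are named when past the threshold on both scales, and others named there were chosen after their values were seen. GC content is that of the longest GENCODE vM21 transcript, and promoter windows are from RefSeq on GRCm38.p6. Exoc3l2 and Ccm2l were not analysed here.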

Additional observations from a re-analysis of the deposited data

How the results depend on the processing

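Of 1000 recomputed values of single genes, 882 kept their direction and their side of the threshold, 54 kept the direction and lost the threshold, 18 gained it and 46 changed sign. As deposited, the count of all genes went from 671 higher and 125 lower to 224 and 270 with size factors, 145 and 22 without the filter on low values, and 2083 and 241 with the replicate block, and with 1 library left out it ran from 234 (without Control replicate 1) to 2273 (without Tfam KO replicate 2) higher and 52 to 112 lower. The count of members as deposited went from 1 higher and 0 lower to 0 and 1 with size factors, 0 higher with a pseudocount of 0.1 or without the filter, 1 lower with totals without Rn45s, 2 and 1 with the replicate block, and 0 to 2 higher with 1 library left out. With size factors, the count of all genes went from 224 higher and 270 lower to 143 lower without the filter, 454 lower in limma-voom, 544 and 836 in limma-voom with the replicate block and 384 higher with the GC correction, and with 1 library left out it ran from 138 to 218 higher and 118 to 338 lower. The count of members there went from 1 lower to 0 without the filter, 3 in limma-voom, 3 with the replicate block, 5 in limma-voom with it, 2 with the GC correction and 0 to 2 with 1 library left out. The causes were not tested.

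Whether the replicate numbers mark a pairing cannot be told from so few libraries. The correlation of same-numbered libraries' deviations was 0.36, 0.05 and 0.17 as deposited and 0.36, 0.07 and 0.16 with size factors. That of other pairs ran from -0.41 to 0.25 as deposited and from -0.39 to 0.25 with size factors. Tfam KO replicate 1 correlated best with Control replicate 1, and Tfam KO replicate 3 with Control replicate 2. The replicate block gave 287 higher and 394 lower genes with size factors, and 2083 and 241 as deposited. Members that changed sign were, from deposited values to size factors, -0.23 for Cdh5, -0.16 for Cldn5, -0.0774 for Esam, -0.17 for Icam2, -0.0656 for Tek, -0.27 for Tie1, -0.10 for Eng, -0.21 for Calcrl, -0.0915 for Clec14a, -0.0979 for Sox7, -0.0133 for Sox17, -0.0230 for Klf4 and -0.14 for Mmrn2. With totals without Rn45s they were -0.0373 for Cdh5, -0.0340 for Cldn5, -0.0895 for Tie1 and -0.0407 for Calcrl, and with the GC correction on size factors 0.15 for Cldn5, 0.0392 for Eng and 0.0129 for Klf4. With 1 library left out, log2 fold changes as deposited ran from -0.0076 to 0.20 for Cdh5, -0.0317 to 0.10 for Cldn5, -0.11 to 0.17 for Tie1, -0.13 to 0.23 for Calcrl, -0.11 to 0.0673 for Aplnr, -0.41 to 0.14 for Sox18, -0.17 to 0.0904 for Egfl7 and -0.26 to 0.0088 for Nos3. With size factors they ran from -0.15 to 0.0468 for Esam, -0.13 to 0.0487 for Tek, -0.23 to 0.0916 for Eng, -0.19 to 0.0021 for Clec14a, -0.0436 to 0.10 for Stab1, -0.13 to 0.14 for Sox17, -0.17 to 0.19 for Klf4 and -0.0431 to 0.0982 for Vwf. Ramp3 and Adm2 were under the filter on mean level and were not tested in the main fits. Reads were few for Ramp3 in both groups and for Adm2 in the controls.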
